A study of Mus musculus with 8 samples.

Results

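The 10 genes described here are Srf, the gene of the transcription factor serum response factor, and 9 genes of the smooth muscle contractile apparatus and its actin-binding proteins: Cnn1, Cnn2, Myl9, Tagln, Tagln2, Acta2, Actg2, Cald1 and Myh11. They were chosen by name. Each was read from a probe set annotated to that gene alone and, for Tagln2, which had more than 1 such probe set, from the one with the highest mean over the 8 arrays. All 10 were among the 22180 genes with such a probe set and among the 13308 genes bright enough to be tested. The genes were proposed with earlier results of these arrays in view, so the adjusted p-values below describe them within the fit over all genes and are not independent evidence of a pattern.

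The data are expression arrays (Affymetrix Mouse Gene ST) of C2C12, a line of mouse myoblasts whose cells join into skeletal myotubes in culture. Every culture had been transduced as myoblasts with a retrovirus and differentiated, and the myotubes then spent 12 h at a set glucose concentration before total RNA was taken. Control cells carried the siScramble retrovirus at 1 mM glucose (2 arrays) or 10 mM glucose (2 arrays). Knockdown cells carried a retrovirus against Baf60c, which is encoded by Smarcd3 and belongs to the BAF complex that remodels chromatin, also at 1 mM (2 arrays) or 10 mM (2 arrays). The design text calls the constructs shRNAs and the 2 arrays of a group independent biological replicates. All cells come from 1 line, and the labels do not state how many shRNA sequences were used.

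Smooth muscle contractile proteins form a thin filament of actin, caldesmon, calponin and transgelin that slides on a myosin switched on by its regulatory light chain. Many of their genes are regulated by SRF, which binds a short DNA element called the CArG box together with a cofactor: myocardin or the myocardin-related factors MRTF-A and MRTF-B for contractile and cytoskeletal genes, or ternary complex factors such as ELK1, ELK3 and ELK4 for immediate early genes. MRTFs are held in the cytoplasm by monomeric actin and released when actin polymerises. Myoblasts and young myotubes express several of these smooth muscle genes, Acta2 and Tagln among them, alongside the sarcomeric genes that SRF also regulates.

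The labels were checked first. The probe set shared by Smarcd3 and Chpf2 lay between 5.40 and 6.27 (log2 expression) on the control arrays and between 2.77 and 4.49 on the knockdown arrays. Txnip, a glucose-induced gene, lay between 3.55 and 4.24 on the arrays at 1 mM and between 9.77 and 10.5 on those at 10 mM. All 8 skeletal muscle markers looked at (among them Myog, Ckm and Acta1) passed the brightness filter, with a mean log2 expression of 7.94 to 10.1 over the arrays. Of 8 smooth muscle markers, Myocd, the gene of myocardin, and Itga8 lay below the filter, Myocd at a mean log2 value of 2.00. The mean of the smooth muscle markers was 3.96 to 4.74, and 3 of the 8 are genes described here. Smooth muscle contractile transcripts were thus read beside a skeletal muscle program, with myocardin near the bottom of the scale.

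The promoters of 7 of the 10 genes were in the RefSeq window table (GRCm38.p6, from 250 bases before to 50 bases after the start). These are Cnn1, Cnn2, Myl9, Tagln2, Acta2, Cald1 and Srf. They were searched for the CArG box, a 10-letter motif whose 6 middle letters are A or T and which reads the same on both strands. A full match stood in the windows of 3 of the 7 genes (Myl9, Cnn2 and Srf), against 1.81% of all 27025 genes with a window. At most 1 mismatch was found in 5 of the 7, adding Acta2 and Cald1, against 23.8% of all genes. Neither was found in the windows of Cnn1 and Tagln2. The stretches below are shown because they hold matches of Cnn2, Myl9 and Acta2, which rose with glucose in both kinds of cells, and the full matches of Srf itself. They are written 5′ to 3′ on the strand of the gene, with every match of at most 1 mismatch in capitals.
Cnn2, chr10:79988350-79988599, plus strand, GRCm38.p6: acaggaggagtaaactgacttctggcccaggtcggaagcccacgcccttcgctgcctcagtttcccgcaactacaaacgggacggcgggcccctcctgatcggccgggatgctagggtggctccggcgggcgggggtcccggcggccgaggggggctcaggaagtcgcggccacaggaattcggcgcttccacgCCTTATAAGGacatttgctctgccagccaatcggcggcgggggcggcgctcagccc
Myl9, chr2:156775214-156775407, plus strand, GRCm38.p6: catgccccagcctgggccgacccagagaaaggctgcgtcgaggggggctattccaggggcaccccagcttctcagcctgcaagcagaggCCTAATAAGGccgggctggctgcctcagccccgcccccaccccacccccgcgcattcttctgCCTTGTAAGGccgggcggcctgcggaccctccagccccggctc
Srf, chr17:46556215-46556244, minus strand, GRCm38.p6: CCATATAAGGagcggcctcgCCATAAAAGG
Acta2, chr19:34255438-34255467, minus strand, GRCm38.p6: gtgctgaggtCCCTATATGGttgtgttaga
Acta2, chr19:34255388-34255417, minus strand, GRCm38.p6: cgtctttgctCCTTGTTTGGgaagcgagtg

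The full match of Cnn2 began 56 bases before the start, and that of Myl9 began 161 bases before it, with a match of 1 mismatch at 99 bases. Srf had full matches 82 and 62 bases before its own start and a match of 1 mismatch, outside the stretch shown, 39 bases before it. The matches of Acta2, both with 1 mismatch, began 84 and 34 bases before its start. Cald1 had 1 match with 1 mismatch, 203 bases before its start. Each start is the one the window table gives. For Srf, Acta2 and Myl9 it lies inside the outermost span of the gene given below and so belongs to another annotated transcript than the one that sets the end of that span. A match is a run of letters in this window and says nothing on binding in these cells.

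Higher glucose went with higher levels of 4 of the 10 genes in control cells: Acta2, Myl9, Cald1 and Cnn2 rose between 1.69-fold and 2.30-fold. In knockdown cells Myl9, Cnn2, Acta2 and Tagln rose between 1.72-fold and 3.39-fold. Knockdown went with higher Cnn1, Myl9 and Tagln at 10 mM glucose, by 2.17-fold to 4.84-fold, and with no call among the 10 at 1 mM. Srf, Tagln2 and Actg2 were not called in any comparison, nor was Myh11, which was dim. No gene of the 10 fell in any comparison over the 8 arrays. In whole cultures, more cells of a kind and more RNA per cell cannot be told apart.

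A call means an adjusted p under 0.05 from limma, adjusted by the Benjamini-Hochberg method over all 13308 genes. Rises are read against the background of all genes. With glucose in control cells 4 of 10 rose, where 13.2% of all genes tested rose, 12.1% fell and 25.3% were called in either direction; the median change of the 10 was 0.33 on the log2 scale, against -0.01 for all genes. With glucose in knockdown cells 4 of 10 rose, where 14.5% of all genes rose, 10.6% fell and 25.1% were called; the medians were 0.80 and 0.03. After centring each array on its median, the higher share of all calls with glucose in knockdown cells went from 57.9% to 46.9%, while the 4 genes described here were called as before. The arrays at 10 mM lay wholly above those at 1 mM for 6 of the 10 in control cells and 8 of the 10 in knockdown cells, where 32.3% and 34.8% of all genes did so. The 2 glucose comparisons use different arrays but share 1 estimate of the spread, made over all 8 arrays.

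Knockdown at 10 mM went with 3 calls of 10, all higher, where 0.428% of all genes were called higher and 1.12% in either direction; the median change was 0.50 against 0.01 for all genes. These 3 calls became 0 to 2 with 1 array left out, when the calls over all genes went from 149 to between 0 and 76. They became 1, that of Cnn1, without a brightness filter (Myl9 adjusted p = 0.0759, Tagln 0.0713) and with the replicate number as a block (0.0830 and 0.0814), and 5 with the stricter filter or with trend and robust options. At 1 mM limma called 0 of 10, where 1.49% of all genes were called and 0.233% were called higher. The median of the 10 was 0.43 against -0.03. A limma unadjusted p under 0.05 was reached by 6 of the 10 and by 2115 of all 13308 genes. Limma with its trend and robust options called 3 of the 10 (Cnn1, Acta2 and Tagln) and 598 of all genes. The 2 arrays of knockdown cells lay wholly above the 2 of control cells for 7 of the 10 genes at 1 mM and 8 of the 10 at 10 mM, where 20.2% and 24.1% of all genes did so. The interaction (the log2 glucose change after knockdown less the one in controls) was called for 0 of the 10 genes and for 0% of all genes; 1 of the 10 and 1049 of all genes had an unadjusted p under 0.05, and the trend and robust options called 0 of the 10. Each glucose comparison shares 1 group of arrays with each knockdown comparison, so the values of such a pair are not separate evidence. Glucose in control cells and knockdown at 1 mM share the control arrays at 1 mM. Glucose in knockdown cells and knockdown at 10 mM share the knockdown arrays at 10 mM. The plot of the 10 changes in each comparison shows each log2 change with its 95% interval.

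**Figure D1:**
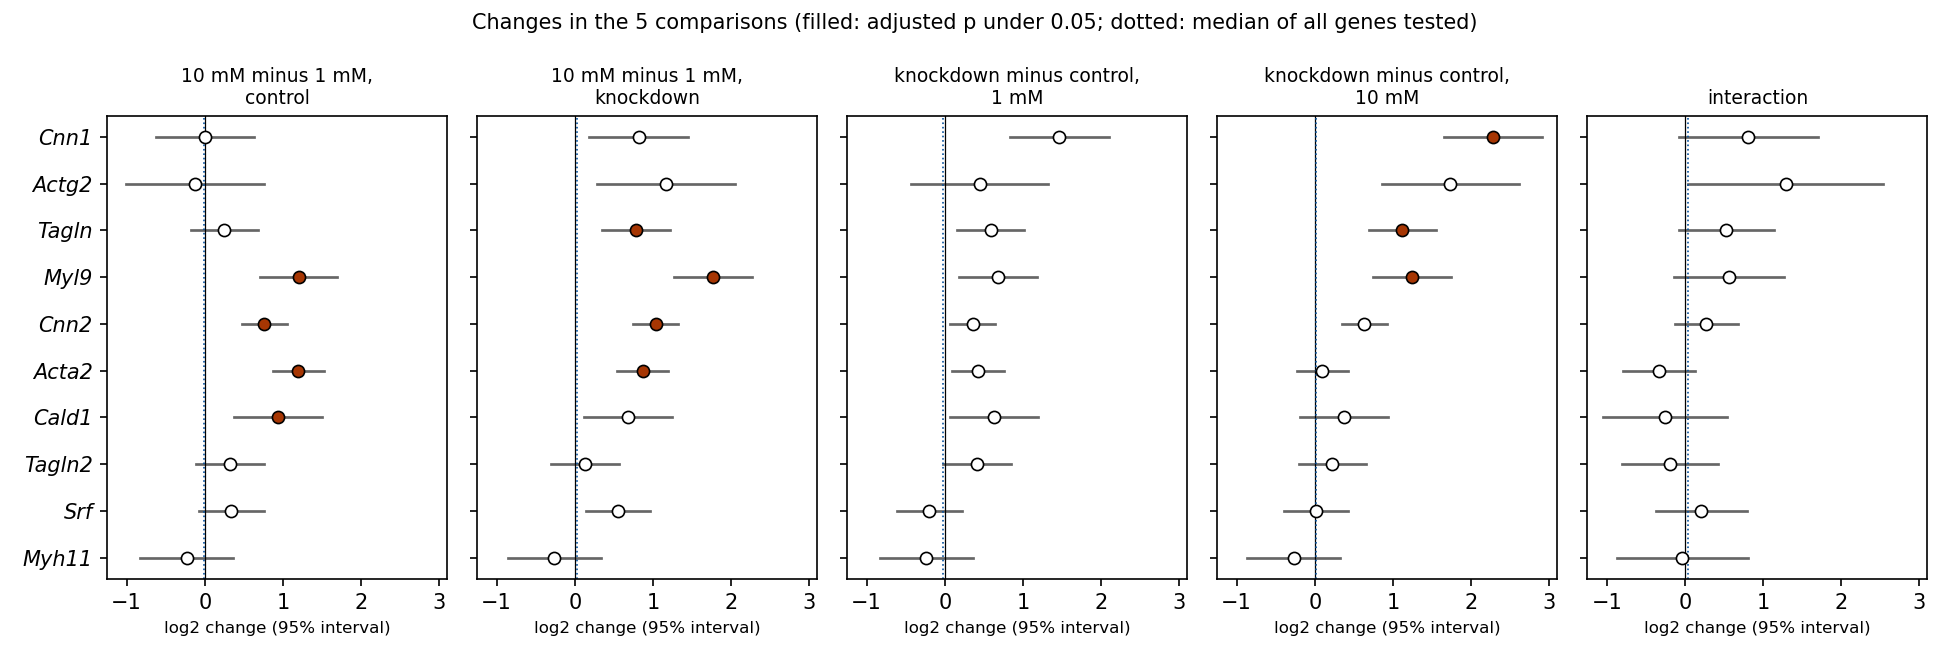
Log2 changes of the 10 genes (rows) in the 5 comparisons (panels). Points are limma estimates, filled where the adjusted p is under 0.05, horizontal lines are 95% intervals, and the dotted line is the median of all genes tested. Most points lie to the right of that line in the 4 simple comparisons, with 4, 4, 0 and 3 filled, and no point is filled in the interaction panel.

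Cnn1 (chromosome 9, 22099221-22109221, GRCm38.p6) encodes calponin 1, an actin-binding protein that restrains myosin and is a marker of differentiated smooth muscle. Its log2 expression was 4.55 and 4.07 in control cells at 1 mM and 4.60 and 4.02 at 10 mM. In knockdown cells it was 5.52 and 6.03 at 1 mM and 6.49 and 6.69 at 10 mM. All 4 knockdown arrays lay above all 4 control arrays, and within knockdown cells both arrays at 10 mM lay above both at 1 mM. Cnn1 was 4.84-fold higher in knockdown than in control cells at 10 mM (log2 change 2.28 ± 0.27 SE, limma adjusted p = 0.0242, n = 2 per group), the 25th smallest p of all 13308 genes. At 1 mM the change was 1.46 ± 0.27 and missed the threshold (limma adjusted p = 0.0525); it passed with arrays centred on their medians (adjusted p = 0.0479), with a stricter brightness filter (0.0107), with trend and robust options (0.00436) and with the mean of a gene's probe sets (0.0487). In control cells the glucose change was 0.00 with a 95% interval from -0.63 to 0.63, and in knockdown cells it was 0.81 ± 0.27 (limma adjusted p = 0.0643), which passed with the stricter filter (0.0263) and with trend and robust options (0.0267). The difference between those responses was 0.81 with an interval from -0.08 to 1.70. The call at 10 mM was lost without any 1 of the 4 arrays at 10 mM: the change was then 2.57 without control replicate 1, 1.98 without control replicate 2, 2.37 without knockdown replicate 1 and 2.18 without knockdown replicate 2, with adjusted p = 0.0714, 0.139, 0.118 and 0.138.

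Cnn2 (chromosome 10, 79988600-79995400) encodes calponin 2, a form found also in non-muscle cells. It read 8.11 and 7.96 in control cells at 1 mM and 8.81 and 8.78 at 10 mM. Knockdown cells read 8.42 and 8.37 at 1 mM and 9.44 and 9.42 at 10 mM. The groups did not overlap: the order from low to high was control at 1 mM, knockdown at 1 mM, control at 10 mM, knockdown at 10 mM. Cnn2 rose with glucose by 0.76 ± 0.12 in control cells (1.69-fold, limma adjusted p = 0.00446) and by 1.03 ± 0.12 in knockdown cells (2.05-fold, limma adjusted p = 0.00115). Its knockdown changes were 0.36 ± 0.12 at 1 mM (adjusted p = 0.224, limma) and 0.63 ± 0.12 at 10 mM (adjusted p = 0.0686, limma). The latter passed with the stricter filter (0.0210) and with trend and robust options (0.00286).

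Tagln (chromosome 9, 45929628-45936058) encodes transgelin, or SM22, which crosslinks actin and is an early smooth muscle marker. Control cells read 7.07 and 6.99 at 1 mM and 7.02 and 7.54 at 10 mM, with overlap between the concentrations. Knockdown cells read 7.68 and 7.56 at 1 mM and 8.34 and 8.45 at 10 mM, above every control array. Tagln rose with glucose in knockdown cells by 0.78 ± 0.18 (1.72-fold, limma adjusted p = 0.0198) and was 2.17-fold higher in knockdown than in control cells at 10 mM (1.12 ± 0.18, limma adjusted p = 0.0469). Its glucose change in control cells was 0.25 ± 0.18 (limma adjusted p = 0.366), and the difference between the responses, 0.53, had an interval from -0.08 to 1.14. The glucose call ended without knockdown replicate 1 or 2 at 1 mM (0.84, adjusted p = 0.0566, and 0.72, adjusted p = 0.0874) and without knockdown replicate 1 or 2 at 10 mM (0.83, adjusted p = 0.0726, and 0.73, adjusted p = 0.101). The call at 10 mM ended without any 1 of the 8 arrays, the change then lying between 0.86 and 1.38 and the adjusted p between 0.0737 and 0.248.

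Tagln2 (chromosome 1, 172500246-172507375) encodes transgelin 2, a more widely expressed relative. Its brighter probe set read 7.88 and 8.29 in control cells at 1 mM, 8.40 and 8.42 at 10 mM, and 8.47 and 8.53, then 8.82 and 8.45, in knockdown cells at the same concentrations. Control cells at 1 mM held the 2 lowest arrays, and the other 6 lay within a narrow band. No change passed the test: the largest was 0.41 ± 0.19 with knockdown at 1 mM (limma adjusted p = 0.335). The second probe set, with values between 5.17 and 6.14, was not called either.

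Acta2 (chromosome 19, 34240336-34255585) encodes smooth muscle alpha-actin, which immature skeletal muscle cells also make. It read 10.64 and 10.36 in control cells at 1 mM and 11.64 and 11.76 at 10 mM. In knockdown cells it read 10.93 and 10.92 at 1 mM and 11.83 and 11.76 at 10 mM. All 4 arrays at 10 mM lay above all 4 at 1 mM, and at 10 mM control and knockdown cells nearly coincided. Acta2 rose 2.29-fold with glucose in control cells (1.20 ± 0.14, limma adjusted p = 0.00127) and 1.82-fold in knockdown cells (0.87 ± 0.14, limma adjusted p = 0.00408), and both calls held under every alternative tried. Its knockdown change at 10 mM was 0.09, with a 95% interval from -0.23 to 0.42. At 1 mM it was 0.42 ± 0.14, which only the trend and robust options called (adjusted p = 0.0154).

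Actg2 (chromosome 6, 83512909-83536251) encodes the gamma-actin of visceral smooth muscle. Control cells read 6.08 and 6.22 at 1 mM and 6.27 and 5.78 at 10 mM. Knockdown cells read 7.21 and 5.98 at 1 mM and 7.92 and 7.61 at 10 mM. Knockdown cells at 10 mM held the 2 highest arrays, while the knockdown replicates at 1 mM stood far apart, replicate 2 among the control arrays and replicate 1 above them. No change of Actg2 passed the test: knockdown at 10 mM gave 1.73 ± 0.38, or 3.33-fold (limma adjusted p = 0.0913), and glucose in knockdown cells 1.17 ± 0.38 (limma adjusted p = 0.0596). Both passed with the stricter filter (adjusted p = 0.0274 and 0.0232) and with trend and robust options (0.0160 and 0.0193), and the glucose change also with the replicate number as a block (0.0378). Without knockdown replicate 1 at 1 mM the glucose change in knockdown cells was 1.79 and passed (adjusted p = 0.00660). The knockdown difference at 10 mM passed without either knockdown array at 1 mM (adjusted p = 0.0371 in both cases). The difference of its glucose responses, 1.29 with a 95% interval from 0.05 to 2.53, was the one interaction of the 10 with an unadjusted p under 0.05 (limma unadjusted p = 0.0440; limma adjusted p = 0.613).

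The 6 actin genes of the mouse were set side by side, each within its own probe set. Vertebrate actins are very similar in coding sequence, and whether their probe sets share signal was not tested. Both sarcomeric actins were lower with knockdown, whereas Acta2 and Actg2 were not called. Acta1, skeletal alpha-actin, fell by 0.79 ± 0.13 with knockdown at 1 mM (limma adjusted p = 0.0344) and changed by -0.50 at 10 mM (limma adjusted p = 0.137). Actc1, cardiac alpha-actin, which early skeletal myotubes express, fell by 1.83 at 1 mM and 1.31 at 10 mM (limma adjusted p = 0.00597 and 0.0332). With glucose Actc1 rose 2.61-fold in control and 3.76-fold in knockdown cells, and Acta1 rose by 0.65 in knockdown cells (limma adjusted p = 0.00941). The glucose change of Acta1 in control cells was 0.36 (limma adjusted p = 0.0769), and its interaction, 0.28 ± 0.18, did not pass. The cytoplasmic actins Actb and Actg1 rose with glucose in knockdown cells (0.89 and 0.79, limma adjusted p = 0.0322 and 0.00888), and their changes in control cells were -0.04 and 0.34, not called; their interactions did not pass either (limma adjusted p = 0.590 and 0.678). Of these calls, that of Acta1 at 1 mM was lost without any 1 of the 8 arrays (adjusted p of at most 0.176) and that of Acta1 with glucose without knockdown replicate 2 at 10 mM (0.0621). That of Actc1 at 1 mM was lost without control replicate 2 at 1 mM, that of Actg1 without knockdown replicate 2 at 10 mM, that of Actb without any 1 of 5 arrays and that of Actc1 at 10 mM without any 1 of 6; the highest adjusted p among these was 0.0651, 0.0552, 0.167 and 0.193 in that order. The plot of the 6 actins shows Acta2 following glucose, Actg2 high in knockdown cells at 10 mM, and Actc1 lower in knockdown cells at each concentration.

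**Figure D2:**
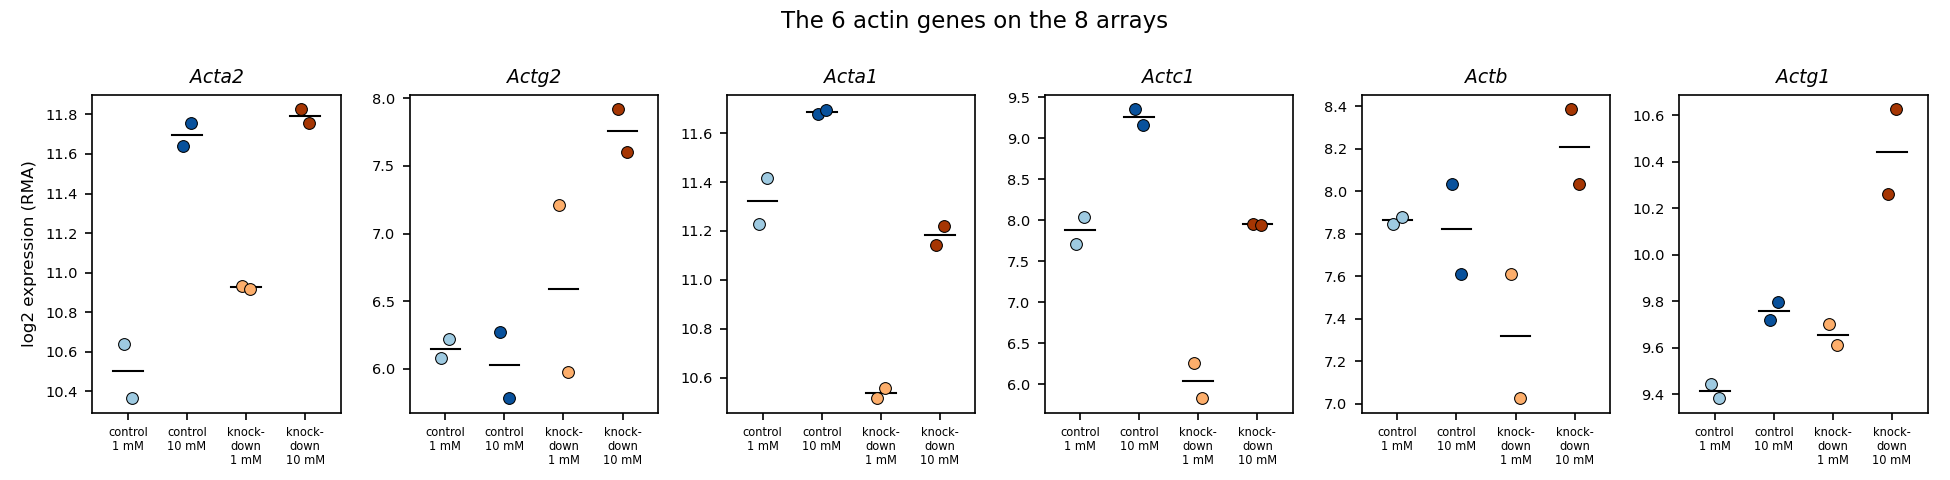
Log2 expression (RMA) of the 6 actin genes; points are single arrays, short lines are means of the 2 arrays in a group, and each panel has its own y axis. All 4 arrays at 10 mM are higher for Acta2 (11.64 to 11.83) than all 4 at 1 mM (10.36 to 10.93), Actg2 is highest in knockdown cells at 10 mM (7.92 and 7.61), and Actc1 is lower in knockdown than in control cells at both concentrations.

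Myl9 (chromosome 2, 156775408-156781657) encodes the regulatory light chain of smooth muscle and non-muscle myosin, the subunit that is phosphorylated to start contraction. Control cells read 5.97 and 5.56 at 1 mM and 7.12 and 6.81 at 10 mM. Knockdown cells read 6.25 and 6.64 at 1 mM and 8.33 and 8.08 at 10 mM. The 4 groups did not overlap, in the same order as for Cnn2. Myl9 rose 2.30-fold with glucose in control cells (1.20 ± 0.21, limma adjusted p = 0.00652) and 3.39-fold in knockdown cells (1.76 ± 0.21, limma adjusted p = 0.00122), and both calls held under every alternative. The interaction, 0.56 ± 0.30, did not pass the test (limma adjusted p = 0.704). It was 2.36-fold higher in knockdown than in control cells at 10 mM (1.24 ± 0.21), a call at the edge of the threshold (limma adjusted p = 0.0491) that was lost without any 1 of the 8 arrays (change 1.09 to 1.39, adjusted p 0.0629 to 0.246) and with arrays centred on their medians (adjusted p = 0.0511).

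Myh11 (chromosome 16, 14194527-14292188) encodes the smooth muscle myosin heavy chain, the most specific marker of mature smooth muscle. It was dim throughout: 2.997 and 3.23, then 2.96 and 2.80 in control cells at 1 and 10 mM, and 3.28 and 2.46, then 2.55 and 2.67 in knockdown cells. The mean of 3 of the 4 groups lay under 3 on the log2 scale, close to the filter at 2.30, and no change passed. Its knockdown change at 10 mM was -0.27 and that of glucose in knockdown cells -0.26 (limma adjusted p = 0.721 and 0.507). The latter became -0.67 without knockdown replicate 2 at 1 mM, where it passed (adjusted p = 0.0486). A change at this level of signal may be understated by the array.

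Cald1 (chromosome 6, 34598495-34775469) encodes caldesmon, which blocks myosin on the actin filament and has smooth muscle and non-muscle forms that were not told apart here. Control cells read 8.90 and 8.35 at 1 mM and 9.45 and 9.66 at 10 mM. Knockdown cells read 8.97 and 9.52 at 1 mM and 9.90 and 9.95 at 10 mM. Within each kind of cell the arrays at 10 mM lay above those at 1 mM, but the replicates at 1 mM differed by more than those of most other genes described here. Cald1 rose 1.91-fold with glucose in control cells (0.93 ± 0.24, limma adjusted p = 0.0280), and its change in knockdown cells was 0.67 ± 0.24 (limma adjusted p = 0.0814). The latter passed with the stricter filter (adjusted p = 0.0360), with trend and robust options (0.0197) and without knockdown replicate 2 at 1 mM (0.95, adjusted p = 0.0457). The call in control cells was lost without control replicate 2 at 1 mM (0.65, adjusted p = 0.139), without control replicate 1 at 10 mM (1.03, adjusted p = 0.0704) and without control replicate 2 at 10 mM (0.83, adjusted p = 0.134).

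Srf (chromosome 17, 46546838-46558267) read 6.88 and 7.03 in control cells at 1 mM and 7.05 and 7.54 at 10 mM. Knockdown cells read 6.73 and 6.77 at 1 mM and 7.31 and 7.30 at 10 mM. In both kinds of cells the arrays at 10 mM lay above those at 1 mM, and at 10 mM control and knockdown arrays overlapped. The glucose change was 0.34 ± 0.18 in control cells (limma adjusted p = 0.203) and 0.55 ± 0.18 in knockdown cells (limma adjusted p = 0.0582), neither of them called. The first passed without control replicate 1 at 10 mM (0.59, adjusted p = 0.0487). The second passed with the stricter filter (0.0245), with trend and robust options (0.0165) and without either control array at 10 mM (0.0248 in both cases). The knockdown change at 10 mM was 0.01, with a 95% interval from -0.40 to 0.43.

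The plot of the 10 genes on the 8 arrays sets these profiles side by side. By the root mean square difference of log2 profiles over the 8 arrays, after each gene's own mean was subtracted, the closest pairs among the 10 were Cnn2 and Acta2 (0.210), Acta2 and Cald1 (0.232), and Cnn2 and Cald1 (0.236). Srf was closest to Tagln2 (0.302). Cnn1 stood farther from the rest, its closest being Tagln (0.615), and Cnn1 and Myh11 were the most distant pair (1.20). These distances describe 8 arrays that share the treatments and carry no test.

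**Figure D3:**
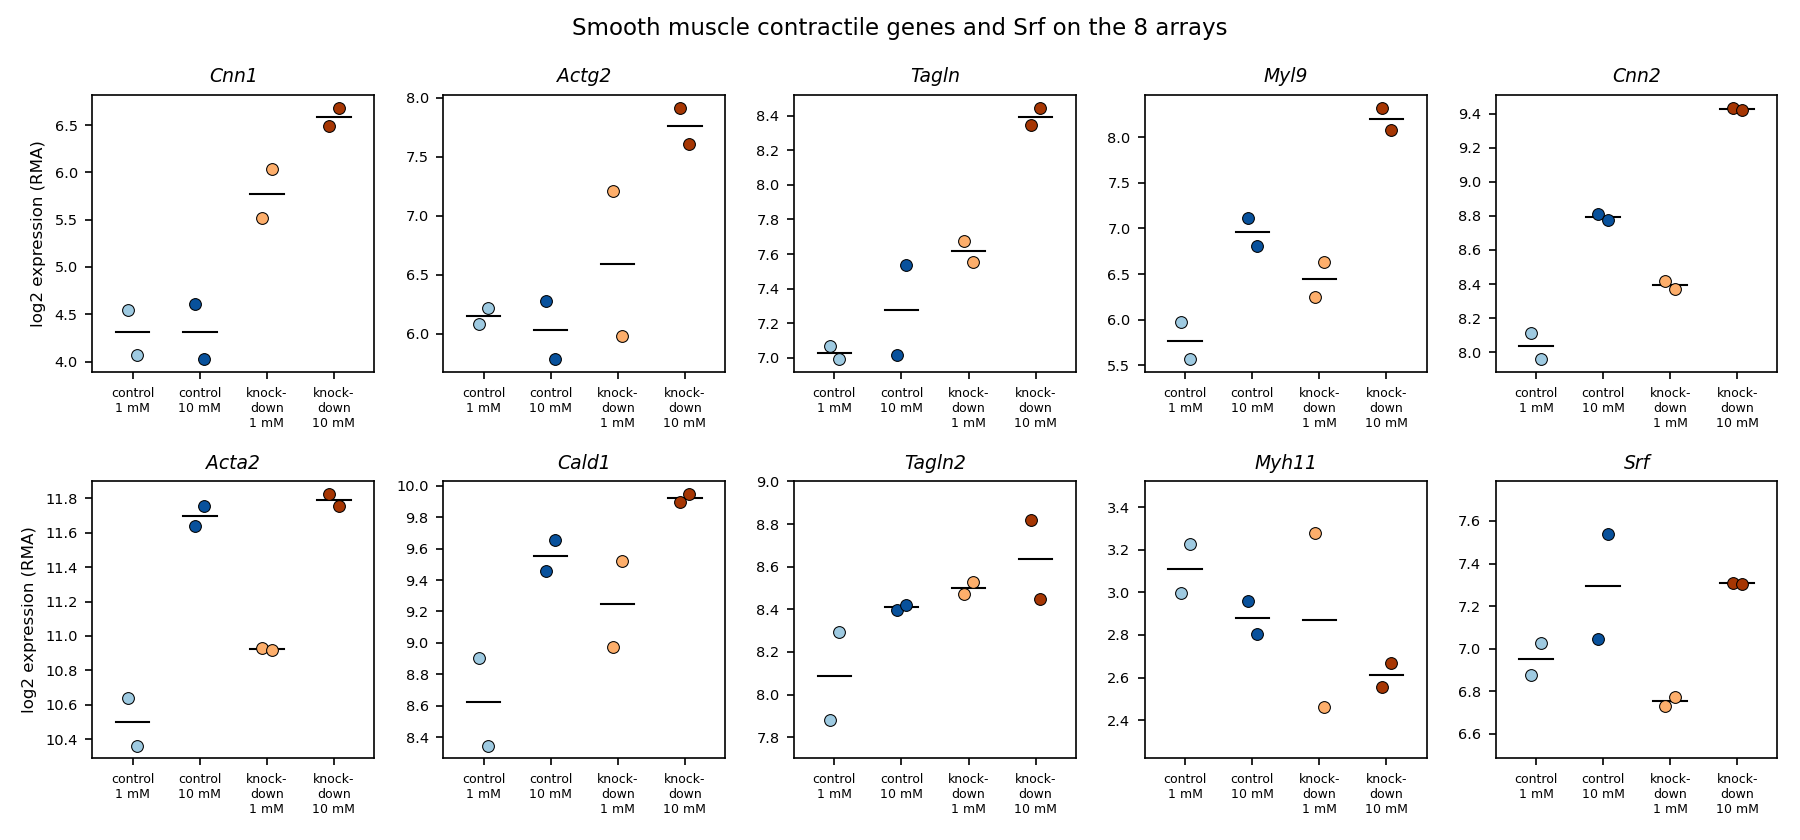
Log2 expression (RMA) of the 10 genes on the 8 arrays; points are single arrays, short lines are means of the 2 arrays in a group, and each panel has its own y axis. Cnn1 is higher on the 4 knockdown arrays (5.52 to 6.69) than on the 4 control arrays (4.02 to 4.60). Acta2 separates by glucose. The 4 groups do not overlap for Cnn2 and Myl9. Both genes are higher at the higher glucose concentration in each kind of cell, and higher in knockdown than in control cells at each concentration.

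The cofactors and partners of SRF were described as a list, of which 15 genes were tested. With glucose 5 rose and 0 fell in control cells, and 5 rose and 0 fell in knockdown cells, with medians of 0.34 and 0.38. Over all genes 13.2% and 14.5% rose, with medians of -0.01 and 0.03. With knockdown 1 fell and 0 rose at each concentration, where 1.25% of all genes fell at 1 mM and 0.691% at 10 mM. The gene that fell was Abra in both. The counts with glucose ran from 2 to 5 in control cells and from 3 to 6 in knockdown cells when 1 array was left out. The first fell to 2 or 3 without control replicate 1 or 2 at 1 mM or control replicate 2 at 10 mM, and the second to 3 without knockdown replicate 2 at 10 mM.

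Abra encodes STARS, an actin-binding protein of striated muscle that promotes MRTF entry into the nucleus. It read 4.75 and 4.93 in control cells at 1 mM and 7.26 and 7.54 at 10 mM, and 3.18 and 2.86, then 5.52 and 5.05, in knockdown cells. The 4 groups did not overlap, and Abra was lower in knockdown than in control cells at each concentration. It rose 5.89-fold with glucose in control cells (2.56 ± 0.21, limma adjusted p = 0.00031) and 4.82-fold in knockdown cells (limma adjusted p = 0.000438). With knockdown it fell 3.53-fold at 1 mM (limma adjusted p = 0.00837) and 4.32-fold at 10 mM (limma adjusted p = 0.0139). Abra thus had the direction of Acta2, Myl9 and Cnn2 with glucose and the opposite direction from Cnn1, Myl9 and Tagln with knockdown. The knockdown calls were lost without any 1 of 3 arrays at 1 mM (control replicates 1 and 2, knockdown replicate 2) and any 1 of the 4 at 10 mM, with adjusted p of at most 0.0804 and 0.110.

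Mrtfa, the gene of MRTF-A, read 6.52 and 6.16 in control cells at 1 mM and 6.91 and 7.005 at 10 mM, and 6.41 and 6.42, then 6.83 and 6.76, in knockdown cells. It rose by 0.62 ± 0.15 with glucose in control cells (1.53-fold, limma adjusted p = 0.0237), a call lost without control replicate 2 at 1 mM or either control array at 10 mM (highest adjusted p 0.115), and changed by 0.38 in knockdown cells (limma adjusted p = 0.111). Mrtfb, the gene of MRTF-B, changed by 0.35 and 0.44 and was not called. Scai, the gene of a suppressor of MRTF, rose by 0.54 in control cells at the edge of the threshold (limma adjusted p = 0.0481), which held in 1 of 8 fits with 1 array left out. Mrtfa and Mrtfb had knockdown changes between -0.16 and 0.07, none of them called.

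Among the ternary complex factors, Elk3, which mostly represses its targets, rose with glucose by 1.03 in control cells and 1.39 in knockdown cells (2.04-fold and 2.62-fold; limma adjusted p = 0.00175 and 0.000501). Elk1 and Elk4 were not called, with glucose changes between -0.24 and 0.14. Fhl2, whose product binds SRF and is itself an SRF target, rose with glucose 1.80-fold in control cells (limma adjusted p = 0.0129) and 3.07-fold in knockdown cells (limma adjusted p = 0.000885). The interaction of Fhl2 was 0.77 ± 0.25 and did not pass (limma adjusted p = 0.585), and its call in control cells was lost without control replicate 1 at 1 mM or control replicate 2 at 10 mM (highest adjusted p 0.0705). Genes of the RhoA pathway to actin, Rhoa, Rock1, Limk1, Limk2 and Cfl1, were not called in any comparison. Of these Limk1, a kinase that inactivates cofilin, had the largest glucose changes (0.57 and 0.67, limma adjusted p = 0.0890 and 0.0557). The plot of the cofactors shows Abra spread over more than any other of the 5.

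**Figure D4:**
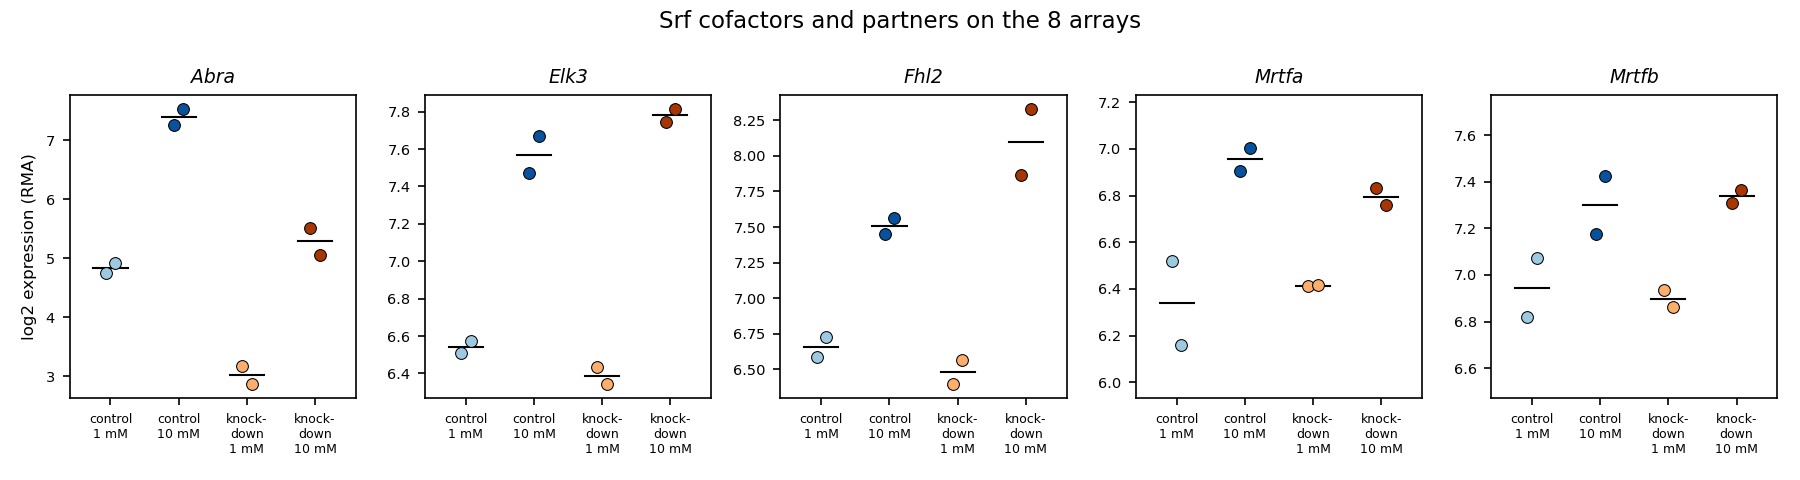
Log2 expression (RMA) of Abra, Elk3, Fhl2, Mrtfa and Mrtfb on the 8 arrays; points are single arrays, short lines are means of the 2 arrays in a group, and each panel has its own y axis. Abra runs from 2.86 to 7.54 and is lower in knockdown than in control cells at each concentration, while Elk3 and Fhl2 are higher at 10 mM in both kinds of cells.

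Other genes of the smooth muscle contractile and adhesion apparatus, 28 of them tested, were read against the same background. With glucose 17 rose and 1 fell in control cells (median 0.65), and 16 rose and 0 fell in knockdown cells (median 0.74), where 13.2% and 14.5% of all genes rose. Csrp2 and Csrp1, LIM-domain partners of actin, rose with glucose by 0.97 and 1.05 in control cells (limma adjusted p = 0.00189 and 0.00200). Synpo2, an actin-bundling protein, rose by 1.07 in control and 1.73 in knockdown cells, and Vcl, the adhesion protein vinculin, by 0.91 and 1.52. The gene that fell in control cells was Flna, filamin A, by 0.52 (limma adjusted p = 0.0175), lost without any 1 of the 4 control arrays. The count of 17 was 11 without control replicate 1 at 10 mM, its lowest with 1 array left out.

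With knockdown, 0 of these 28 rose and 2 fell at 1 mM, and 1 rose and 1 fell at 10 mM, where 1.49% and 1.12% of all genes were called. Pgm5, an adhesion plaque protein of muscle, fell 6.87-fold at 1 mM and 4.17-fold at 10 mM (limma adjusted p = 0.00396 and 0.0242). Tpm2, beta-tropomyosin, fell by 1.00 at 1 mM (limma adjusted p = 0.0179), and Flna rose by 0.71 at 10 mM (limma adjusted p = 0.0474). The list's medians were -0.01 and 0.10, against 0.43 and 0.50 for the 10 genes described here. The call of Tpm2 was lost without any 1 array of the groups compared and that of Flna without any 1 of the 8 arrays. That of Pgm5 at 10 mM was lost without any 1 of 6 arrays.

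Another 3 lists hold SRF targets by the cofactor class known for the genes. The MRTF list shares 8 of its 28 tested genes with the smooth muscle list above (Tpm1, Tpm2, Tpm4, Actn1, Vcl, Flna, Tgfb1i1 and Pdlim7) and 3 with the cofactor list (Fhl2, Actb and Actg1), so those calls appear in both counts. Of 28 tested cytoskeletal and adhesion genes of the MRTF class, 12 rose and 2 fell with glucose in control cells, and 17 rose and 0 fell in knockdown cells. Over all genes 13.2% rose and 12.1% fell in control cells, and 14.5% rose and 10.6% fell in knockdown cells. Thbs1, an extracellular matrix protein, rose 3.17-fold in control cells and 6.68-fold in knockdown cells (limma adjusted p = 0.000301 and 7.14e-05). Filip1l rose 3.31-fold and 3.51-fold, and Ccn1, a secreted matricellular protein, 3.03-fold and 3.39-fold. With knockdown 1 of the 28 fell at 1 mM (Tpm2), and 2 rose at 10 mM (Thbs1, by 0.93, limma adjusted p = 0.0327, and Flna). Of all genes 1.25% fell at 1 mM and 0.428% rose at 10 mM. The 12 rises became 7 without control replicate 2 at 1 mM or control replicate 2 at 10 mM, and the 17 became 11 and 10 without knockdown replicates 1 and 2 at 10 mM. The 2 rises with knockdown at 10 mM became 0 or 1 without any 1 of the 8 arrays, and the 2 falls with glucose became 1 without any 1 of the 4 control arrays.

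SRF targets of striated muscle, 18 of them tested, were called only higher with glucose and only lower with knockdown. Most are sarcomeric, but the list also holds Ckm, Dmd, Nppa and Nppb, which are not. In control cells 10 rose and 0 fell (median 0.68), and in knockdown cells 14 rose and 0 fell (median 1.03). Of all genes 13.2% and 14.5% rose. With knockdown 11 fell and 0 rose at 1 mM (median -1.13), and 9 fell and 0 rose at 10 mM (median -0.98), where 1.25% and 0.691% of all genes fell. Myom1, an M-band protein, fell 8.03-fold at 1 mM and 3.43-fold at 10 mM (limma adjusted p = 0.00207 and 0.0112), and Ckm, muscle creatine kinase, fell 3.09-fold and 3.32-fold (limma adjusted p = 0.00339 and 0.00658). The 11 falls at 1 mM became 4 without control replicate 2 at 1 mM and 7 without any other array at 1 mM. The 9 falls at 10 mM became 2 without control replicate 1 at 10 mM, 0 without any other array at 10 mM and 5 without either control array at 1 mM. The 14 rises in knockdown cells became 9 without knockdown replicate 2 at 10 mM. At 10 mM, then, the 3 called smooth muscle genes were higher and the 9 called genes of the striated muscle list lower in the same arrays.

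Immediate early genes of the ternary complex factor class, 14 of them tested, showed no shared direction with glucose. In control cells 3 rose (Egr3 by 1.08, Nr4a1 by 0.68 and Egr1 by 0.58) and Ier3 fell by 0.83, with a median of 0.02. In knockdown cells 0 rose and 3 fell (Ier2 by 1.05, Ier3 by 0.88 and Dusp5 by 0.57), with a median of -0.02. Over all genes 13.2% rose and 12.1% fell with glucose in control cells, and 14.5% rose and 10.6% fell in knockdown cells. Limma called 0 of them with knockdown at either concentration, where 1.49% and 1.12% of all genes were called. At 1 mM and 10 mM, 6 and 0 had a limma unadjusted p under 0.05, as did 2115 and 1807 of all 13308 genes. The trend and robust options called 2 and 0 of the 14, and 598 and 467 of all genes. The 3 rises became 0 or 1 without any array but control replicate 1 at 10 mM, and the 3 falls became 1 without either knockdown array at 1 mM or knockdown replicate 1 at 10 mM. The plot of gene lists shows the medians of the smooth muscle and MRTF lists above 0 with glucose and that of the striated muscle list below 0 with knockdown.

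**Figure D5:**
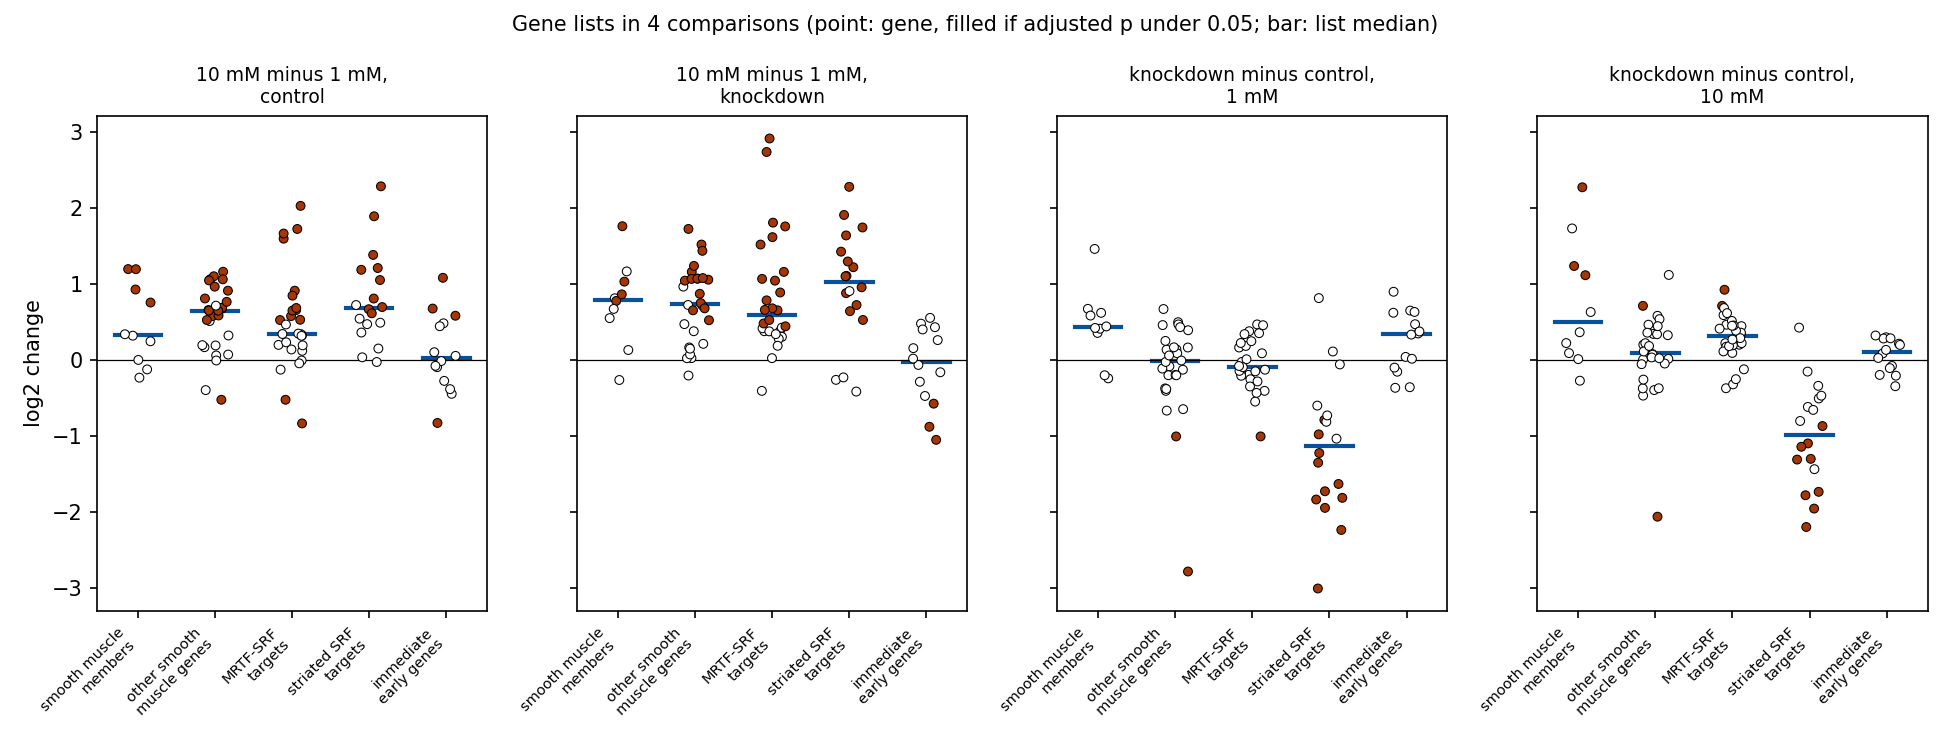
Log2 change of each tested gene (points, filled where the adjusted p is under 0.05) in 5 lists and 4 comparisons; blue bars are list medians. Striated muscle SRF targets have medians of 0.68 and 1.03 with glucose and of -1.13 and -0.98 with knockdown. The 10 genes described here have medians of 0.33 and 0.80, then 0.43 and 0.50.

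Markers of other cell types were read on the same arrays. The skeletal muscle markers had a mean log2 expression of 9.14 to 9.20 in control cells at 1 mM and 9.93 to 10.1 at 10 mM, and of 7.94 to 8.05 and 9.17 to 9.19 in knockdown cells. Of these 8 markers 5 rose with glucose in control cells and 8 in knockdown cells, and 5 fell with knockdown at 1 mM and 3 at 10 mM. Ckm, Acta1, Mylpf and Myh3 are also in the list of striated muscle SRF targets, and Des is in that of other smooth muscle genes. Their calls are therefore counted again here and are not separate evidence. Over all genes these shares were 13.2% and 14.5%, then 1.25% and 0.691%. The 5 rises became 2 without control replicate 2 at 10 mM, and the 8 became 5 without knockdown replicate 1 at 1 mM and 4 without knockdown replicate 2 at 10 mM. The 5 falls became 2 or 3 without any 1 array at 1 mM, and the 3 became 0 without any 1 array at 10 mM. The mean of the 7 fibroblast markers was 7.64 to 7.76 at 1 mM and 8.80 to 8.99 at 10 mM in control cells. In knockdown cells it was 7.67 to 7.71 and 8.87 to 8.89. Of these 7, 6 rose with glucose in each kind of cell. Limma called 0 with knockdown at either concentration, where 1.49% and 1.12% of all genes were called. The knockdown changes were positive for 4 and negative for 3 at each concentration. At 1 mM and 10 mM, 2 and 5 of these 7 had a limma unadjusted p under 0.05, as did 2115 and 1807 of all 13308 genes. The trend and robust options called 2 and 3 of the 7, and 598 and 467 of all genes. The mean of the pericyte markers lay between 3.69 and 4.19 on every array, and those of the endothelial, macrophage and adipocyte markers between 2.06 and 2.79. Single markers spread more widely. Among the pericyte markers Notch3 read 6.40 to 6.93 and Cspg4 4.97 to 5.75, while Rgs5, Abcc9 and Kcnj8 read at most 3.16. The macrophage marker Cd68 reached 4.72. Of 3 macrophage markers tested, Cd68 and Ptprc fell with glucose in knockdown cells, by 0.99 and 0.67 (limma adjusted p = 0.0365 and 0.0282), where 10.6% of all genes fell. Each call was lost without either knockdown array at 1 mM, and also without knockdown replicate 1 (Cd68) or 2 (Ptprc) at 10 mM, with adjusted p of at most 0.188. Of the endothelial, macrophage and adipocyte markers, Pecam1, Kdr, Emcn, Adgre1, Csf1r, Fabp4, Cidec and Lep were below the filter. The fibroblast markers thus moved with the genes that rose with glucose, and the skeletal markers with them and against those that rose with knockdown; their part in these results was not tested.

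Over all genes tested, the profiles nearest to 3 of the genes were listed by the same distance. Srf was nearest to Gpc1 (0.0650), Npepps (0.0707), Cnpy4 (0.0760), Matn2 (0.0771) and Spidr (0.0796). Among these Npepps, Cnpy4 and Matn2 rose with glucose in knockdown cells, by 0.58, 0.58 and 0.49 (limma adjusted p = 0.0235, 0.0215 and 0.0404). Gpc1 and Spidr changed by 0.45 and 0.60 there, not called. The 3 calls were each lost without any 1 of the 4 knockdown arrays, and that of Matn2 also without either control array at 1 mM. The shared shape is a small step up at 10 mM, with control replicate 2 at 10 mM the highest array in all 5 genes and in Srf. In Npepps and Cnpy4 that array barely exceeded knockdown replicate 1 at 10 mM (9.38 against 9.35, and 6.81 against 6.78).

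Acta2 was nearest to Septin9 (0.0807), Hs2st1 (0.0951), Mxd4 (0.0975), Mapk8ip1 (0.0984) and Rras (0.104), and all 5 rose with glucose in both kinds of cells, Rras not without knockdown replicate 1 at 10 mM in knockdown cells (adjusted p = 0.0630). Septin9 rose by 1.27 in control and 0.90 in knockdown cells, next to 1.20 and 0.87 for Acta2. Since these 5 were picked for a profile like that of Acta2, their rises were given by the choice. Cnn1 had no neighbour as near: Igfbp2 stood at 0.387, Pla2g7 at 0.425, Nrg1 at 0.469, Vegfc at 0.478 and 9930111J21Rik2 at 0.484. Igfbp2, an insulin-like growth factor binding protein, was higher with knockdown by 1.39 at 1 mM and 1.497 at 10 mM (limma adjusted p = 0.0204 and 0.0284), on all 4 knockdown arrays against all 4 control arrays. Nrg1, the ligand neuregulin 1, was higher by 1.10 and 1.15 (limma adjusted p = 0.0467 and 0.0491), and Vegfc, a lymphatic growth factor, by 1.61 at 10 mM (limma adjusted p = 0.0242). The calls of Igfbp2 and Vegfc at 10 mM were lost without any 1 of the 4 arrays at 10 mM, and that of Nrg1 without any 1 of the 8 arrays. Those at 1 mM were lost without any 1 of 3 arrays for Igfbp2 and of 6 for Nrg1.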

How the data were processed

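Log2 expression values of 41345 probe sets on 8 arrays were used as the authors deposited them, made with affy and RMA according to the submitters' processing notes (versions and genome build not given in the sources used here). RMA normalizes arrays to a common distribution, so a shift common to all transcripts is lost, and it shrinks changes of dim genes. Probe sets with 1 gene in the platform annotation (23521) gave 22180 genes; 1814 probe sets with several genes and 16010 with none were left out, except the shared Smarcd3 probe set, read for its values alone. Genes with a mean under the 40th percentile (2.30) were left out. Gene positions and promoter windows come from RefSeq on GRCm38.p6; 0 sample columns were unused.

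Limma 3.58.1 in R 4.3.3 (lmFit, eBayes without trend or robust options) fitted 1 mean per group over 8 arrays, leaving 4 degrees of freedom plus 3.36 from the prior. Tests of the 5 contrasts were two-sided, with Benjamini-Hochberg adjustment over 13308 genes. The median SE of a log2 change was 0.173. The number of arrays limits the precision.

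The 10 genes and all gene lists were chosen with earlier results of these data known. Named were the 10 genes, Smarcd3 and Txnip, all SRF cofactors, up to 4 called genes of each list and comparison with the smallest p, and the 5 profiles nearest to Srf, Acta2 and Cnn1; Acta1, Smad2 and list genes named to account for a count were added after their values were seen. Alternatives were no filter, a stricter filter, centring on array medians, the mean of a gene's probe sets, trend and robust options, the replicate number as a block, and leaving out each array.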

Additional observations from a re-analysis of the deposited data

How the results depend on the processing

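Of the 10 genes, 4 were called with glucose in control cells under every alternative but leaving out an array (3 to 4), and 0 in the interaction under all of them. With glucose in knockdown cells the 4 calls became 8 with the stricter filter and 8 with trend and robust options (3 to 5 with 1 array left out). With knockdown at 1 mM the 0 calls became 1 with centring, 1 with the stricter filter, 1 with the mean of probe sets and 3 with trend and robust options (0 to 0 with 1 array left out). With knockdown at 10 mM the 3 calls became 1 without a filter, 1 with the replicate block, 5 with the stricter filter and 5 with trend and robust options (0 to 2 with 1 array left out). The replicate block gave 4, 5, 0, 1 and 0 calls in the 5 comparisons. Same-numbered arrays did not deviate together over the genes tested (r from -0.0385 to 0.108). This check cannot tell whether same-numbered cultures were prepared together, which the labels do not state. Over all genes, calls with knockdown at 1 mM went from 198 to between 134 and 598 (30 to 129 with 1 array left out), and at 10 mM from 149 to between 69 and 467 (0 to 76). Of 695 values of the 10 genes under alternatives, 636 kept their side of the threshold, 32 lost and 27 gained a call. A reversal of direction counted only where at least 1 of the fits compared made a call, and 0 did so. Uncalled changes could change sign: that of Cnn1 with glucose in control cells ran from -0.29 to 0.29. The stricter filter dropped Myh11. For 70 other named genes these were 4563, 249, 58 and 0 of 4870. With 2 arrays per group, the 95% interval of a typical change reaches 0.406 to either side, and 0.574 for the interaction.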

Other observations

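Transforming growth factor beta signalling, a known inducer of smooth muscle genes, was looked at as a list of 16 tested genes. With glucose 6 rose and 0 fell in control cells, and 8 rose and 1 fell in knockdown cells, with medians of 0.18 and 0.45. Over all genes 13.2% rose and 12.1% fell in control cells, and 14.5% rose and 10.6% fell in knockdown cells, with medians of -0.01 and 0.03. The ligand gene Tgfb3 rose 2.63-fold in control and 3.24-fold in knockdown cells (limma adjusted p = 0.00149 and 0.000621). The receptor gene Tgfbr2 rose by 0.96 and 0.85, the signal transducer gene Smad3 by 0.97 and 1.01, and Pmepa1, a feedback target of the pathway, by 0.75 and 0.97. Limma called 0 of the 16 with knockdown at either concentration, where 1.49% and 1.12% of all genes were called. At 1 mM and 10 mM, 3 and 4 had a limma unadjusted p under 0.05, as did 2115 and 1807 of all 13308 genes. The trend and robust options called 2 and 1 of the 16, and 598 and 467 of all genes. The gene that fell was Smad2, by 0.45 (limma adjusted p = 0.0459), and that call was lost without any 1 of the 8 arrays. The call of Pmepa1 in control cells was lost without control replicate 2 at 1 mM or at 10 mM (highest adjusted p 0.0580). The count of 6 was 3 without control replicate 2 at 10 mM, and that of 8 was 5 without knockdown replicate 1 at 10 mM.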
